A study of Mus musculus with 18 samples.

Results

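This account compares the CD4 T cells that were sorted as regulatory T cells (Treg) with those sorted as conventional T cells (Tconv) from wild-type (WT) mice. The members are all cells of the 2 sorted Treg and 2 sorted Tconv samples, 1072 of the 26652 cells of the series. Treg replicates 1 and 2 held 331 and 231 cells, and Tconv replicates 1 and 2 held 362 and 148. The whole series has 18 samples of mouse splenic CD4 T cells, from WT mice, from mice with a disrupted Foxp3 and from mixed marrow chimeras of both.

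All 4 sorted samples came from spleens of untreated males aged 9 weeks. Their strain was B6 Foxp3-IRES-GFP crossed to CD45.1. In this strain the Foxp3 transcript also encodes green fluorescent protein (GFP), and both groups carry the reporter. Live cells with TCRβ and CD4 on their surface were sorted, GFP+ cells as Treg and GFP- cells as Tconv. RNA was counted with the 10x Genomics V3 kit, which captures the 3′ end of each transcript and counts molecules by their unique molecular identifier (UMI). By the batch names in the authors' metadata, replicate 1 of both groups ran in tube A and replicate 2 of both in tube B. The 2 tubes are taken here as 2 10x channels. Each group carried 1 hashtag antibody in both channels, so the 2 samples of a group may come from 1 mouse. The difference between the 2 samples of a sorted group may then be technical only. Except in fits of only the sorted samples, the p-values use a spread shared by the V3 samples. These also include unsorted WT mice, mice with a disrupted Foxp3 and chimeras. The unsorted WT mice were of the same age as the sorted ones. The mice with a disrupted Foxp3 were younger, and the chimeras were older, at 16 weeks. Whether sorted cells of separate mice vary as much was not tested.

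Treg are CD4 T cells that restrain immune responses, and most depend on the transcription factor Foxp3. Known features of Treg include the high-affinity IL-2 receptor, through which IL-2 activates the kinases JAK1 and JAK3 and the transcription factor STAT5, co-inhibitory and TNF-family receptors, and a limited ability to secrete helper cytokines. Resting Treg circulate through spleen and lymph nodes much as naive Tconv do, while activated Treg acquire receptors for entry into tissues.

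The sort could be checked on the transcripts it was based on. Foxp3 gave 48 and 37 UMIs in the Treg samples and 0 and 0 in the Tconv samples, and GFP gave 133 and 160 against 3 and 3. Cells with a UMI of GFP were 30.5% and 41.6% of Treg, at median depths of 4731 and 5747 UMIs per cell, and 0.829% and 2.03% of Tconv, at 5176.5 and 6402 UMIs. Of 23 well-known Treg markers, 22 were higher in Treg, against 6.16% of all genes tested. Levels are given for replicate 1 and then replicate 2 in CPM, the UMIs of a gene per 1000000 UMIs of the sample, scaled by the trimmed mean of M-values (TMM). Il2ra, the IL-2 receptor alpha chain, measured 244 and 170.0 CPM in Treg and 0 and 4.32 CPM in Tconv. In the authors' annotation all sorted Treg cells were Treg. So were 6 of the 362 cells of Tconv replicate 1 and 0 of the 148 of replicate 2. The sources used here do not say whether the annotation drew on the sort, so it is not counted as a check.

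The samples differed in makeup as well as in sort. By the authors' clusters, Treg replicate 1 was 41.4% resting, 25.1% "furtive" (a name the labels do not explain), 21.8% activated and 10.3% tissue-like. Treg replicate 2 was 32.9% resting, 14.7% furtive, 30.3% activated and 16.9% tissue-like. Resting clusters made up 85.1% and 73.0% of the Tconv samples and activated clusters 13.3% and 27.0%. Cells with proliferation genes were 15.1% and 28.1% of Treg and 10.8% and 21.6% of Tconv, and summed proliferation genes came to 419 and 1121 CPM in Treg and 148 and 489 CPM in Tconv. Cells with markers of other cell types were 3.32% and 9.96% of Treg and 2.76% and 4.05% of Tconv. The summed B cell list, which includes class II genes that T cells can also carry, came to 395 and 483 CPM in Treg and 237 and 234 CPM in Tconv, and 3 of its 10 tested genes (Cd79b, Cd74 and Ighm) were higher in Treg. Its core genes, such as those of the B cell receptor, came to 36.4 and 43.1 CPM in Treg and 16.0 and 14 CPM in Tconv. In each group the shares of activated cells, of cells with proliferation genes and of cells with other-type markers were larger in replicate 2. Replicate 2 also had more UMIs per cell, and a cell with 2 proliferation genes was already counted. The authors' dividing clusters held 1.51% and 5.19% of Treg and 1.38% and 1.35% of Tconv, so in Tconv they were not larger in replicate 2.

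Of 10918 genes tested across the genome, 673 were higher and 656 lower in Treg (edgeR quasi-likelihood test with Benjamini-Hochberg adjusted p under 0.05). That is 12.2% of genes in either direction, 6.16% higher and 6.01% lower, and these shares are the background for each list below. The background was not matched for level. Of 5026 genes with a mean of at least 20 CPM over the 4 sorted samples, 415 were higher and 499 lower, a larger share. Well-known Treg markers count in some lists: Tnfrsf4, Tnfrsf9, Tnfrsf18, Ctla4, Tigit, Icos, Lrrc32, Il2ra, Il2rb, Gpr83, Itgae, Nrp1 and Nt5e. In 51.1% of all tested genes the 2 groups did not overlap. Outside the well-known markers, called genes given with values below were chosen for no overlap, which therefore adds no support. The split between higher and lower depends on scaling: per plain UMI totals, 1627 genes were higher and 360 lower, and the median over all genes moved from 0 to 0.26 on the log2 scale. Without cells that carried markers of other types, 680 genes were higher and 643 lower, and without cells with proliferation genes the counts were 601 and 542. Tconv replicate 1 weighed most: without it 169 genes were higher and 253 lower, and without Treg replicate 2 the counts were 356 and 345. Of the 1329 called genes, 349 kept their call in each of the 4 fits that leave out 1 sample. Without Tconv replicate 1, that group rests on replicate 2 alone, with 148 cells and 955097 UMIs, the fewest of the 4 sorted samples. Whether calls that end there reflect this smaller sample was not tested. Samples with the same replicate number shared a 10x channel. With the replicate number as a block in a fit of the 4 sorted samples, 872 genes were higher and 649 lower, and with the channel as a block in all 14 V3 samples 807 and 744. Without a block, the fit of the 4 sorted samples gave 613 and 423. For each list below, the counts of calls in these settings, DESeq2 and the removal of cells are given where they differ from the first count by over 1.5 times. They are by edgeR unless DESeq2 is named. The counts over all genes change with the setting too, so such list counts are not to be set against the background shares above.

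**Figure D1:**
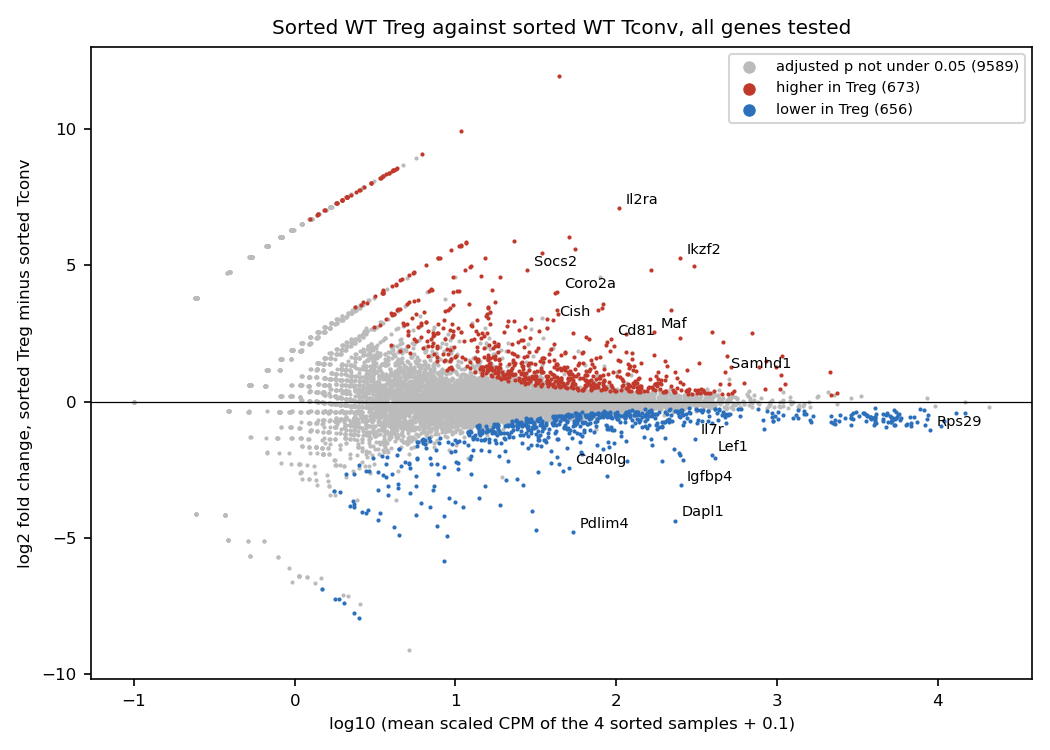
Each point is 1 of the 10918 genes tested, with the log10 of its mean scaled CPM over the 4 sorted samples (plus 0.1) on the x axis and its fitted log2 fold change, Treg minus Tconv, on the y axis. Red and blue points passed the threshold as higher (673) or lower (656) in Treg. Points in the straight bands at the left have few or 0 UMIs in a group, where the fitted fold depends on the prior count, and the dense blue group at the far right are ribosomal protein genes such as Rps29.

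Outside the well-known markers, the genes with the largest increases had varied known roles. Coro2a, an actin-binding coronin, measured 85.1 and 73.8 CPM in Treg and 1.15 and 11.9 CPM in Tconv (log2 fold change 4.00, SE 0.45, edgeR adjusted p = 5.05e-05). Fam129a, a stress-responsive gene now called Niban1, measured 68.3 and 85.6 CPM in Treg and 4.58 and 13 CPM in Tconv (log2 fold change 3.34, SE 0.48, edgeR adjusted p = 0.000303), and Gbp3, an interferon-inducible GTPase, measured 68.9 and 60.2 CPM in Treg and 4.58 and 14 CPM in Tconv (log2 fold change 3.01, SE 0.46, edgeR adjusted p = 0.000459). Tconv replicate 2 was above Tconv replicate 1 for all 3 genes, and both stayed far below the Treg samples. Capn3, a calcium-dependent protease, measured 46.5 and 28.3 CPM in Treg and 5.16 and 4.32 CPM in Tconv (log2 fold change 2.94, edgeR adjusted p = 0.000346). Nav2, a cytoskeleton-associated navigator protein, measured 31.4 and 50.7 CPM in Treg and 5.16 and 5.40 CPM in Tconv (log2 fold change 2.96, edgeR adjusted p = 0.000459). Cyfip1, a part of the WAVE complex that drives actin branching, rose by 2.75 on the log2 scale, Mdfic by 2.74 and Tiam1, an activator of Rac, by 2.71. Those calls ended without Tconv replicate 1 (edgeR adjusted p = 0.25, 0.13 and 0.32). Those of Cyfip1 and Tiam1 also ended without Treg replicate 2 (0.062 and 0.06), and that of Tiam1 without Treg replicate 1 (0.052).

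The largest decreases were in genes with little signal in the Treg samples. Pdlim4, which encodes an actin-associated PDZ and LIM domain protein, measured 5.04 and 2.36 CPM in Treg and 106 and 103 CPM in Tconv (log2 fold change -4.80, SE 0.33, edgeR adjusted p = 8.17e-07). Dapl1 measured 25.8 and 17.1 CPM in Treg and 469 and 415 CPM in Tconv (log2 fold change -4.36, SE 0.20, edgeR adjusted p = 8.74e-09), and Tdrp measured 5.60 and 1.18 CPM in Treg and 56.1 and 56.1 CPM in Tconv (log2 fold change -4.02, SE 0.43, edgeR adjusted p = 3.04e-05). The 2 Tconv samples were nearly level for these genes, and no Treg sample came near them. Igfbp4, a secreted binding protein of insulin-like growth factors, measured 63.8 and 44.8 CPM in Treg and 512 and 383 CPM in Tconv (log2 fold change -3.05, edgeR adjusted p = 1.49e-06). Als2cl, related to activators of the small GTPase Rab5, measured 7.84 and 3.54 CPM in Treg and 50.4 and 43.2 CPM in Tconv (log2 fold change -3.05, edgeR adjusted p = 0.000177), and Fam101b, also named refilin B, measured 23.0 and 23.0 CPM in Treg and 158 and 145 CPM in Tconv (log2 fold change -2.73, edgeR adjusted p = 1.49e-06). Klrd1, which encodes the CD94 chain of a natural killer receptor, measured 5.04 and 4.72 CPM in Treg and 35.5 and 36.7 CPM in Tconv (log2 fold change -2.88, edgeR adjusted p = 0.000158), while of 5 tested genes of a CD8 T and natural killer marker list 0 passed the threshold in edgeR, 1 had an unadjusted p under 0.05 and 1 passed in DESeq2, both in the lower direction. Gm26551, of no assigned role here, fell by 2.59 on the log2 scale. None of these calls ended in any setting tried.

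Of 24 tested transcription factors of the naive T cell state, 6 fell (Tcf7, Satb1, Lef1, Sox4, Klf2 and Foxp1) and 1 rose (Id3). The median log2 fold change of the 24 was -0.28, or -0.02 with plain totals. Tcf7 encodes TCF-1, which holds T cells in a naive or stem-like state, and measured 117 and 75.5 CPM in Treg and 469 and 383 CPM in Tconv (log2 fold change -2.15, SE 0.20, edgeR adjusted p = 6.95e-06). Lef1, its close relative, measured 178 and 146 CPM in Treg and 693 and 553 CPM in Tconv (log2 fold change -1.95, SE 0.15, edgeR adjusted p = 1.54e-06), and the chromatin organiser Satb1 measured 119 and 85.6 CPM in Treg and 439 and 348 CPM in Tconv (log2 fold change -1.95, SE 0.21, edgeR adjusted p = 2.65e-05). Treg replicate 2, with the fewer resting cells, was the lowest sample for all 3. Id3, an inhibitor of E proteins, went the other way at 252 and 211 CPM in Treg and 135 and 105 CPM in Tconv (log2 fold change 0.92, SE 0.15, edgeR adjusted p = 0.000819). Bcl11b, which maintains T cell identity, measured 376 and 319 CPM in Treg and 449.6 and 372 CPM in Tconv (log2 fold change -0.25, edgeR adjusted p = 0.16) and Ets1 541 and 499.8 CPM in Treg and 596 and 541 CPM in Tconv (log2 fold change -0.13, edgeR adjusted p = 0.45). Neither passed the threshold, and the Bcl11b samples overlapped. Bcl11b passed with the channel block (adjusted p = 0.025). Naive-state factors called higher numbered 2 with the replicate block or with plain totals.

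Of 30 tested effector and lineage factors, 10 rose (Nfil3, Prdm1, Ahr, Maf, Hopx, Batf, Rora, Ikzf3, Gata3 and Hif1a), 3 fell (Ikzf1, Id2 and Runx3), and the median log2 fold change was 1.03. Maf, which drives IL-10 and follicular programmes, measured 273 and 308 CPM in Treg and 32.1 and 77.7 CPM in Tconv (log2 fold change 2.55, SE 0.53, edgeR adjusted p = 0.00496). Hopx measured 157 and 193 CPM in Treg and 29.8 and 82.0 CPM in Tconv (log2 fold change 1.81, SE 0.38, edgeR adjusted p = 0.0052), and Batf, an AP-1 partner needed for effector differentiation, measured 98.0 and 137 CPM in Treg and 32.6 and 46.4 CPM in Tconv (log2 fold change 1.63, SE 0.29, edgeR adjusted p = 0.00161). In all 3 genes Tconv replicate 2 was above replicate 1, and without replicate 1 the calls ended (edgeR adjusted p = 0.15, 0.19 and 0.086). Effector and lineage factors called higher numbered 0 without Tconv replicate 1 (10 at an unadjusted p under 0.05), and 6 without Treg replicate 2. Effector and lineage factors called lower numbered 1 without Treg replicate 1, without Tconv replicate 2 or with plain totals, and 5 with the channel block. Ikzf1, which encodes Ikaros, fell in every setting tried and measured 124 and 103 CPM in Treg and 286 and 293 CPM in Tconv (log2 fold change -1.34, SE 0.11, edgeR adjusted p = 1.54e-06). The Ikaros relative Ikzf2 (Helios), a known Treg marker, moved oppositely, at 479 and 495 CPM in Treg and 10.9 and 16.2 CPM in Tconv. Id2, a further E protein inhibitor, measured 46.5 and 74.9 CPM in Treg and 104 and 203 CPM in Tconv (log2 fold change -1.27, SE 0.35, edgeR adjusted p = 0.025), and its call ended without Treg replicate 1 (0.18), without Tconv replicate 2 (0.21), without cells with markers of other types (0.073) and with plain totals (0.071). Runx1, a partner of Foxp3, measured 58.8 and 54.3 CPM in Treg and 56.7 and 57.2 CPM in Tconv (log2 fold change -0.01, edgeR adjusted p = 0.99), and its samples overlapped.

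In the NF-κB pathway, which carries signals from antigen and TNF-family receptors to the nucleus, 9 of 31 tested genes rose (Traf1, Nfkbia, Nfkbid, Rel, Tnip1, Tank, Nfkbie, Nfkb2 and Relb) and 1 fell (Ikbkb). The 9 hold NF-κB subunits (Rel, Nfkb2 and Relb) as well as inhibitors of the pathway (Nfkbia, Nfkbie, Nfkbid and Tnip1). Nfkbia, the inhibitor IκBα and itself an NF-κB target, measured 395 and 364 CPM in Treg and 164 and 182 CPM in Tconv (log2 fold change 1.14, SE 0.12, edgeR adjusted p = 1.83e-05). Traf1, an adaptor of TNF receptors, measured 115 and 117 CPM in Treg and 48.1 and 54.0 CPM in Tconv (log2 fold change 1.20, SE 0.17, edgeR adjusted p = 0.000321). Both calls held in every setting tried, with the samples of a group close together. Nfkbid, a nuclear IκB that takes part in Foxp3 induction, measured 38.6 and 52.5 CPM in Treg and 16.6 and 29.1 CPM in Tconv (log2 fold change 1.10, edgeR adjusted p = 0.00676), and its call ended without Tconv replicate 1 (edgeR adjusted p = 0.27) and without Treg replicate 2 (0.082). Ikbkb, the kinase IKKβ, measured 109 and 104 CPM in Treg and 154 and 147 CPM in Tconv (log2 fold change -0.50, edgeR adjusted p = 0.014); its call ended with plain totals (0.16), without Tconv replicate 1 (0.16) and without Treg replicate 2 (0.094). Nfkb1, the p50 precursor, measured 113 and 131 CPM in Treg and 81.3 and 106 CPM in Tconv and missed the threshold (log2 fold change 0.42, edgeR adjusted p = 0.17). It passed with the replicate block (adjusted p = 0.024), with plain totals (0.038) and with no filter (0.036). With plain totals 19 genes of the list rose. NF-κB genes called higher numbered 3 without Tconv replicate 1, 4 without Treg replicate 2, and 5 without Tconv replicate 2. NF-κB genes called lower numbered 0 without Treg replicate 2 or without Tconv replicate 1 (1 and 2 at an unadjusted p under 0.05, in that order), and 2 with the channel block.

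Of 20 tested AP-1, Egr, Nr4a and NFAT factors, 3 rose (Crem, Nfat5 and Junb) and 2 fell (Atf4 and Nfatc3), with a median log2 fold change of 0.44. AP-1, Egr, Nr4a and NFAT factors called higher numbered 0 without Tconv replicate 1 (5 at an unadjusted p under 0.05), 5 in the fit of the 4 sorted samples, and 7 with the replicate block. AP-1, Egr, Nr4a and NFAT factors called lower numbered 0 without Treg replicate 2, without Tconv replicate 1, in DESeq2, with plain totals, in the fit of the 4 sorted samples or without cells with proliferation genes (2, 3, 3, 0, 2 and 2 at an unadjusted p under 0.05, in that order), and 1 without Tconv replicate 2 or with the replicate block. Nfat5, known for its response to osmotic stress, measured 69.4 and 66.1 CPM in Treg and 34.4 and 32.4 CPM in Tconv (log2 fold change 1.01, edgeR adjusted p = 0.00663), and Junb measured 217 and 202 CPM in Treg and 117 and 159 CPM in Tconv (log2 fold change 0.64, edgeR adjusted p = 0.00728). Without Tconv replicate 1 neither passed (edgeR adjusted p = 0.096 and 0.23). Jund measured 753 and 797 CPM in Treg and 659.9 and 652 CPM in Tconv (log2 fold change 0.24, edgeR adjusted p = 0.093) and did not pass in that fit, but did with the replicate block (adjusted p = 0.00725), with plain totals (0.0021) and without cells with proliferation genes (0.041). Among 23 STAT, IRF and SMAD factors, 2 rose, among them Irf5, and Smad7, an inhibitor of TGF-β signalling, fell; their share was close to the background. STAT, IRF and SMAD factors called higher numbered 1 without Treg replicate 2 or without Tconv replicate 1, 5 with the replicate block, and 7 with plain totals. STAT, IRF and SMAD factors called lower numbered 0 without Treg replicate 2 or without Tconv replicate 1 (2 and 1 at an unadjusted p under 0.05, in that order), and 2 without Tconv replicate 2, with the replicate block or in the fit of the 4 sorted samples. Smad7 measured 88.5 and 47.8 CPM in Treg and 178 and 112 CPM in Tconv (log2 fold change -1.13, edgeR adjusted p = 0.014), and its call ended without Tconv replicate 1 (0.36) and without Treg replicate 2 (0.17). Of 34 chromatin regulators, Kdm2b, Arid5b and Hdac7 rose and Hmgn1 and Arid5a fell, 14.7% of the list against 12.2% of all genes. Chromatin regulators called higher numbered 0 without Treg replicate 2 or without Tconv replicate 1 (5 and 5 at an unadjusted p under 0.05, in that order), 1 without Treg replicate 1 or without Tconv replicate 2, 6 with the replicate block, and 8 with plain totals. Chromatin regulators called lower numbered 1 without Treg replicate 2, without Tconv replicate 1, in DESeq2, with plain totals, in the fit of the 4 sorted samples or without cells with proliferation genes. Hmgn1, a nucleosome-binding protein, measured 104 and 109 CPM in Treg and 218 and 174 CPM in Tconv (log2 fold change -0.90, edgeR adjusted p = 0.00024) and kept its call in every setting tried.

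**Figure D2:**
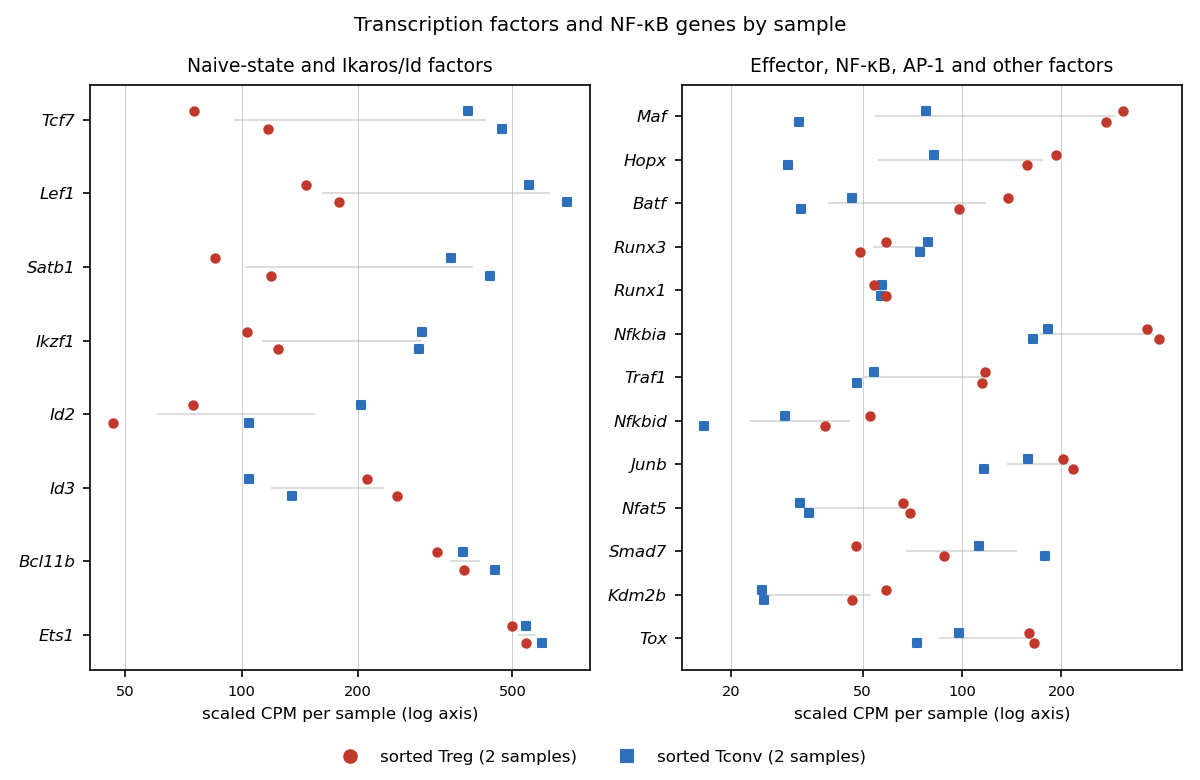
Scaled CPM (log axis) of transcription factors and NF-κB genes in each of the 4 sorted samples, red circles for Treg and blue squares for Tconv, with a grey line between the group means. Within a gene the lower mark is replicate 1. Tcf7, Lef1, Satb1 and Ikzf1 lie to the right in Tconv, Maf, Hopx and Batf to the right in Treg with the 2 Tconv samples apart, and Runx1 and Ets1 show the groups side by side or touching.

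Of 24 tested receptors and ligands of the TNF family, 8 rose. Of these, 7 were receptors (Tnfrsf8, Tnfrsf4, Tnfrsf9, Tnfrsf1b, Tnfrsf18, Fas and Tnfrsf25) and 1 a ligand (Lta). Tnfrsf4, Tnfrsf9 and Tnfrsf18 are among the well-known markers. Both genes that fell were ligands (Cd40lg and Tnfsf8). Cd40lg, the helper signal to B cells and dendritic cells, measured 16.8 and 14.2 CPM in Treg and 77.3 and 93.9 CPM in Tconv (log2 fold change -2.44, SE 0.20, edgeR adjusted p = 1.57e-06). The call held in every setting tried. Tnfsf8, the ligand of CD30, measured 20.7 and 13 CPM in Treg and 69.9 and 68.0 CPM in Tconv (log2 fold change -2.03, edgeR adjusted p = 0.00406). Tnfrsf1b, the TNF receptor TNFR2, measured 70.5 and 83.2 CPM in Treg and 5.73 and 13 CPM in Tconv (log2 fold change 3.2, edgeR adjusted p = 0.000696), and the death receptor Fas measured 49.3 and 43.7 CPM in Treg and 23.5 and 19.4 CPM in Tconv (log2 fold change 1.08, edgeR adjusted p = 0.00418). Without Tconv replicate 1 these last 3 missed the threshold (edgeR adjusted p = 0.067, 0.054 and 0.051), Tnfsf8 also without Treg replicate 2 (0.058). Lta, lymphotoxin alpha, measured 48.7 and 32.5 CPM in Treg and 14.9 and 25.9 CPM in Tconv (log2 fold change 1.09, edgeR adjusted p = 0.02) and missed it without Tconv replicate 1 (0.4) and without Treg replicate 1 (0.17). Its partner Ltb measured 1340 and 1120 CPM in Treg and 1025 and 896 CPM in Tconv (log2 fold change 0.35, edgeR adjusted p = 0.06), and Cd27, a receptor of naive and memory cells, 469 and 421 CPM in Treg and 389 and 327 CPM in Tconv (log2 fold change 0.30, edgeR adjusted p = 0.07); neither passed. In other settings Ltb passed with the replicate block (adjusted p = 1.17e-05), with the channel block (0.00484), in DESeq2 (0.026), with plain totals (0.000791), without cells with proliferation genes (0.018), without cells with markers of other types (0.038), with RLE scaling (0.042), with no filter (0.00412) and without Treg replicate 2 (0.042). Cd27 did so with the replicate block (adjusted p = 0.00282), with the channel block (0.011), in DESeq2 (0.034), with plain totals (0.000793), without cells with proliferation genes (0.019), with RLE scaling (0.049) and with no filter (0.048). TNF family genes called higher numbered 3 without Tconv replicate 1, and 5 without Treg replicate 1. TNF family genes called lower numbered 1 without Treg replicate 2 or without Tconv replicate 1.

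Of 32 tested costimulatory and coinhibitory receptors, 11 rose (Ctla4, Tigit, Pdcd1lg2, Cd81, Slamf1, Cd200r1, Icos, Cd48, Cd2, Cd6 and Cd5) and 1 fell (Lair1). Beside the known Ctla4, Tigit and Icos, the tetraspanin Cd81 measured 141 and 164 CPM in Treg and 28.1 and 35.6 CPM in Tconv (log2 fold change 2.30, SE 0.19, edgeR adjusted p = 2.35e-06). Slamf1, the self-binding receptor CD150, measured 38.1 and 44.8 CPM in Treg and 7.45 and 10.8 CPM in Tconv (log2 fold change 2.26, SE 0.32, edgeR adjusted p = 0.000284). For both genes the gap between the groups was far wider than that between samples of a group. Cd48, a ligand of SLAM-family receptors, measured 283 and 325 CPM in Treg and 140.3 and 199.7 CPM in Tconv (log2 fold change 0.88, edgeR adjusted p = 0.00212), and its call ended without Tconv replicate 1 (edgeR adjusted p = 0.093). Cd28, the main costimulatory receptor, measured 285 and 275 CPM in Treg and 307 and 378 CPM in Tconv (log2 fold change -0.28, edgeR adjusted p = 0.07), and Cd84 134 and 151 CPM in Treg and 148 and 173 CPM in Tconv (log2 fold change -0.16, edgeR adjusted p = 0.46), neither past the threshold. Cd28 passed as lower with the replicate block (adjusted p = 0.045) and without Tconv replicate 1 (0.022). Costimulatory and coinhibitory genes called higher numbered 5 without Tconv replicate 1. Costimulatory and coinhibitory genes called lower numbered 0 without Treg replicate 1 (2 at an unadjusted p under 0.05), and 2 with the replicate block.

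In the list of cytokine and TGF-β receptors and related genes, which includes the cytokine Csf1, 13 of 32 were higher and 5 lower in Treg. The 2 signalling chains of the TGF-β receptor went opposite ways. Tgfbr1 measured 39.7 and 43.7 CPM in Treg and 15.5 and 16.2 CPM in Tconv (log2 fold change 1.40, SE 0.21, edgeR adjusted p = 0.000341). Tgfbr2, which binds the cytokine first, measured 45.3 and 44.3 CPM in Treg and 90.5 and 96.1 CPM in Tconv (log2 fold change -1.05, SE 0.16, edgeR adjusted p = 0.000518). The calls of both chains held in every setting tried. Ifngr1, the interferon-γ receptor, measured 184 and 183 CPM in Treg and 76.8 and 70.2 CPM in Tconv (log2 fold change 1.31, SE 0.14, edgeR adjusted p = 4.43e-05). Il7r, the IL-7 receptor chain that sustains naive and memory cells, measured 175 and 169 CPM in Treg and 413 and 473 CPM in Tconv (log2 fold change -1.36, SE 0.18, edgeR adjusted p = 0.000156), while Il2rg, which the IL-2 and IL-7 receptors share, measured 309.6 and 313 CPM in Treg and 248 and 275 CPM in Tconv (log2 fold change 0.26, edgeR adjusted p = 0.077). Il2rg passed with the replicate block (adjusted p = 0.03), with the channel block (0.046), with plain totals (0.00413) and without cells with proliferation genes (0.046). The calls of Ifngr1 and Il7r held in every setting tried. Il10ra measured 26.3 and 39.5 CPM in Treg and 8.59 and 18.4 CPM in Tconv (log2 fold change 1.43, edgeR adjusted p = 0.022) and Il6ra 75 and 49.0 CPM in Treg and 131 and 95 CPM in Tconv (log2 fold change -0.90, edgeR adjusted p = 0.00649). The call of Il10ra ended without Tconv replicate 1 (edgeR adjusted p = 0.41), without Treg replicate 2 (0.18) and without cells with proliferation genes (0.068). That of Il6ra ended without Tconv replicate 1 (0.24) and without Treg replicate 2 (0.094). The other genes that rose were Lrrc32, Il2ra, Il1rl1, Csf1, Il2rb, Il12rb1, Lrig1, Il10rb, Crlf2 and Ifnar1, and the others that fell were Tgfbr3 and Il17ra. Genes of this cytokine list called higher numbered 6 without Tconv replicate 1. Genes of this cytokine list called lower numbered 3 without Treg replicate 2 or without Tconv replicate 1.

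Among 39 chemokine, lipid and other G protein-coupled receptors, 9 rose (Gpr55, Ccr8, Ccr6, Gpr83, Ccr4, Ccr2, P2ry10, Ptger4 and Adora2a) and 7 fell (among them Ccr7, Gpr171, Gpr132, Gpr183, F2rl1 and S1pr1). Ccr7, which leads naive cells into T cell zones, measured 111 and 99.7 CPM in Treg and 373 and 324 CPM in Tconv (log2 fold change -1.73, SE 0.19, edgeR adjusted p = 4.43e-05). P2ry10, a lysophospholipid receptor, measured 54.9 and 49.0 CPM in Treg and 14.9 and 21.6 CPM in Tconv (log2 fold change 1.58, SE 0.22, edgeR adjusted p = 0.000258). Both held in every setting tried. Ptger4, a prostaglandin E2 receptor, measured 55.4 and 64.9 CPM in Treg and 22.3 and 27.0 CPM in Tconv (log2 fold change 1.32, edgeR adjusted p = 0.00108), and Ccr2, a receptor for inflammatory chemokines, 70.5 and 106 CPM in Treg and 5.73 and 32.4 CPM in Tconv (log2 fold change 2.52, edgeR adjusted p = 0.023). The Tconv samples were far apart for Ccr2. Without Tconv replicate 1 the calls of Ptger4 and Ccr2 ended (edgeR adjusted p = 0.062 and 0.4), as did that of Ccr2 without Treg replicate 2 (0.15). Cxcr3, a receptor of Th1 cells and of some Treg, measured 79.5 and 76.1 CPM in Treg and 26.3 and 110.1 CPM in Tconv (log2 fold change 0.40, edgeR adjusted p = 0.72), the Treg samples lying between the Tconv samples. These G protein-coupled receptors called higher numbered 2 without Tconv replicate 1, and 4 without Treg replicate 2. These G protein-coupled receptors called lower numbered 3 without Tconv replicate 1.

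Of 36 integrins and adhesion molecules, 12 rose (Itgae, Epcam, Itgb8, Dst, Nrp1, Cd38, Plxnd1, Icam1, Itgav, Ly6e, Itga6 and Itgb7) and 7 fell (among them Sema4a, Ly6c1, Itgb3, Icam2, Thy1 and Pecam1). Itgav and Itgb8 encode the pair of chains that form the integrin αvβ8, an activator of latent TGF-β. Itgav measured 30.2 and 43.7 CPM in Treg and 11.5 and 17.3 CPM in Tconv (log2 fold change 1.44, edgeR adjusted p = 0.00704), and its call ended without Tconv replicate 1 (edgeR adjusted p = 0.21) and without Treg replicate 2 (0.081). Icam1, the ligand of the integrin LFA-1, measured 41.4 and 56.7 CPM in Treg and 10.9 and 7.56 CPM in Tconv (log2 fold change 2.34, SE 0.38, edgeR adjusted p = 0.000739), and Ly6e measured 1388 and 1400 CPM in Treg and 689.6 and 754 CPM in Tconv (log2 fold change 0.95, SE 0.07, edgeR adjusted p = 1.49e-06). Sema4a, a semaphorin, measured 5.04 and 6.49 CPM in Treg and 37.8 and 46.4 CPM in Tconv (log2 fold change -2.83, SE 0.22, edgeR adjusted p = 1.54e-06). These last 3 held in every setting tried, with the groups apart by well over the spread within each. Ly6c1, a marker of resting and of some memory cells, measured 119 and 62.0 CPM in Treg and 237 and 239.7 CPM in Tconv (log2 fold change -1.39, edgeR adjusted p = 0.00576); its Treg samples were far apart, and the call ended without Treg replicate 2 (0.086) and without Tconv replicate 1 (0.067). Adhesion genes called higher numbered 5 without Tconv replicate 1. Adhesion genes called lower numbered 2 without Treg replicate 2, 3 without Tconv replicate 1, and 4 with plain totals.

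**Figure D3:**
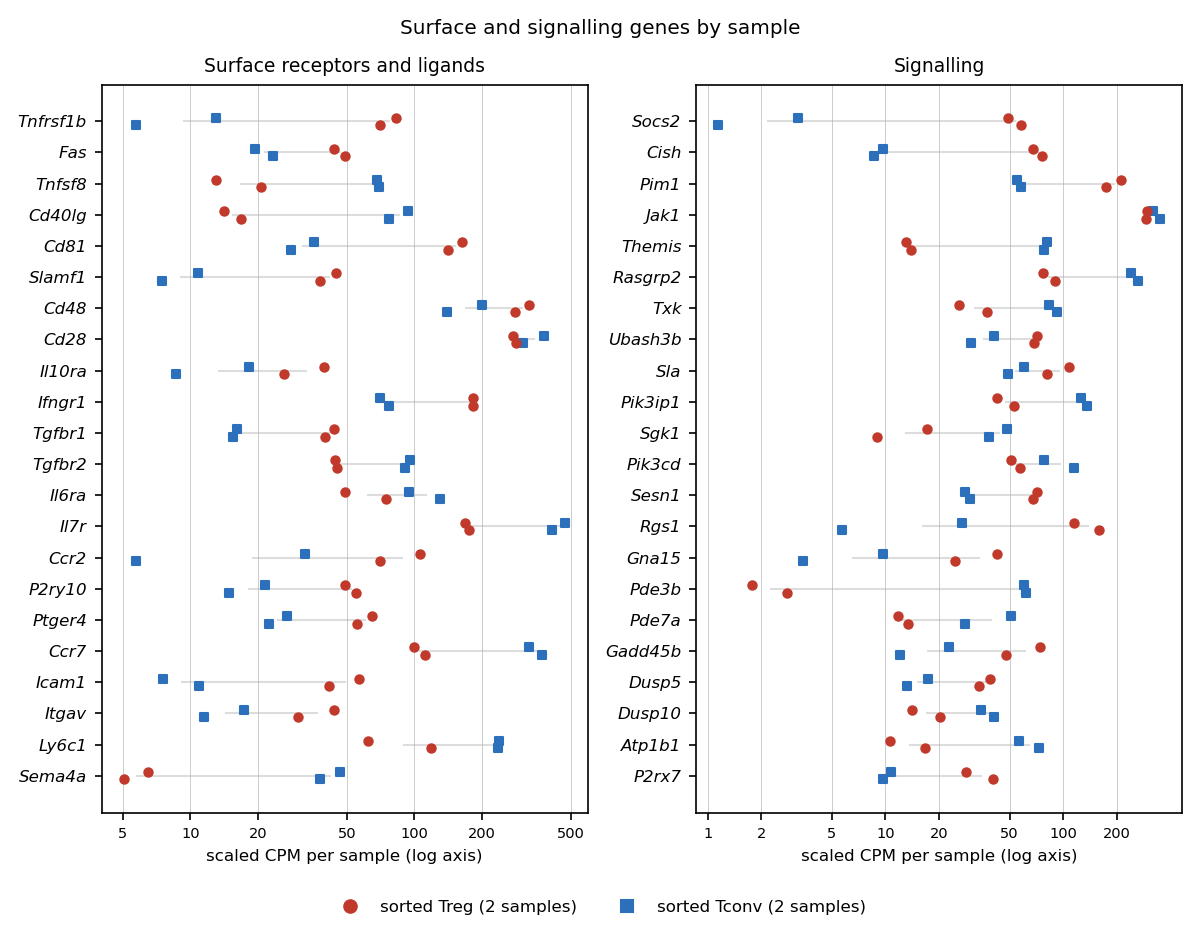
Scaled CPM (log axis) of surface receptors and ligands (left) and of signalling genes (right) in each of the 4 sorted samples, red circles for Treg and blue squares for Tconv, with a grey line between the group means. Within a gene the lower mark is replicate 1. Socs2, Cish, Cd81 and Slamf1 lie to the right in Treg, Pde3b, Sema4a, Cd40lg and Themis to the right in Tconv, and Jak1 and Cd28 have the groups close together.

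In the JAK-STAT list, 4 of 22 tested genes rose (Socs2, Cish, Pim1 and Socs1) and 0 fell by the edgeR test, with 2 at an unadjusted p under 0.05 in that direction and 0 past the threshold in DESeq2. Socs1, Socs2 and Cish are inhibitors that cytokine signals induce, and Pim1 is a kinase that STAT5 is known to induce. Socs2 measured 58.2 and 49.0 CPM in Treg and 1.15 and 3.24 CPM in Tconv (log2 fold change 4.82, SE 1.0, edgeR adjusted p = 0.00482). Its Tconv samples rested on very few UMIs, and without Tconv replicate 1 its call ended (edgeR adjusted p = 0.14). Cish measured 76.1 and 67.3 CPM in Treg and 8.59 and 9.72 CPM in Tconv (log2 fold change 2.99, SE 0.29, edgeR adjusted p = 1.18e-05), and Pim1 measured 175 and 212 CPM in Treg and 57.9 and 55.1 CPM in Tconv (log2 fold change 1.77, SE 0.16, edgeR adjusted p = 6.07e-06). Both held in every setting tried, with the samples of a group close together. The kinase Jak1 measured 291 and 296 CPM in Treg and 350.0 and 318 CPM in Tconv (log2 fold change -0.19, edgeR adjusted p = 0.18), and the phosphatase Ptpn1 138 and 146 CPM in Treg and 142 and 124 CPM in Tconv (log2 fold change 0.08, edgeR adjusted p = 0.75), neither past the threshold. JAK-STAT genes called higher numbered 2 without Tconv replicate 1, and 7 with plain totals. JAK-STAT genes called lower numbered 1 with the replicate block.

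Cish is a textbook target of STAT5, and the stretch of DNA around its start is shown because it is the only called gene of that list in which the STAT5-type motif TTCNNNGAA was found. In RefSeq's GRCm38.p6 annotation the gene lies on chromosome 9 at 107296659-107302784, and the window is chr9:107296529-107296678 on the plus strand, 130 bases before the gene's first base and 20 from it on. Capitals mark the matches.
Cish: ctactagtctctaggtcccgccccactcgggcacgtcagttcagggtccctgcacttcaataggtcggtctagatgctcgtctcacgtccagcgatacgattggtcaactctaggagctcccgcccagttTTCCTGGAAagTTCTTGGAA
The first match covers bases 107296659 to 107296667 and the second 107296670 to 107296678, with 2 bases between them. The motif's fixed letters read alike on both strands, so a single search covers both. In windows of 300 bases per promoter, 250 before the start and 50 after, 14 of the 22 genes had an entry, and 2 of these held the motif, Cish with 2 matches and Socs3, which was not called, with 1. The called Pim1 and Socs1 had an entry with no match, and Socs2 had no entry. Of 8050 tested genes with an entry, 8.39% had at least 1 match and 0.497% had 2 or more. Of the 498 genes higher in Treg with an entry, 10.8% had at least 1 and 2.01% (10 genes) had 2 or more. Of the 469 lower ones, the shares were 7.68% and 0.426% (2 genes). A match is a description of letters and shows no binding.

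Of 48 tested genes that act next to the T cell receptor, 7 rose and 16 fell. With plain totals 14 were called higher and 8 lower, where all genes tested gave 1627 and 360. Among the 16 were Themis, Trat1, Rasgrp2, Txk, Grap2, Tec, Pag1, Dgka, Cd4, Sit1, Lck, Lat, Prkcq, Cd247 and Skap1. The list's median log2 fold change was -0.17, or 0.09 with plain totals. Themis, an adaptor needed for T cell development, measured 14 and 13 CPM in Treg and 77.9 and 81.0 CPM in Tconv (log2 fold change -2.55, SE 0.18, edgeR adjusted p = 1.12e-06). Rasgrp2, an activator of Rap1, measured 89.6 and 77.3 CPM in Treg and 262 and 242 CPM in Tconv (log2 fold change -1.60, SE 0.18, edgeR adjusted p = 5.10e-05), and the Tec-family kinase Txk measured 37.5 and 26.0 CPM in Treg and 92.2 and 83.1 CPM in Tconv (log2 fold change -1.47, SE 0.17, edgeR adjusted p = 5.88e-05). For these 3 genes the Treg samples lay far below the Tconv samples, and the calls held in every setting tried. The 7 that rose were Ptprj, Ubash3b, Sla, Prkch, Ptpn7, Grap and Lcp2. Ubash3b, a phosphatase known as Sts-1 that dampens receptor signals, measured 68.3 and 70.8 CPM in Treg and 30.4 and 41.0 CPM in Tconv (log2 fold change 1.02, edgeR adjusted p = 0.011), and the adaptor Sla, which promotes removal of the receptor, 80.6 and 108 CPM in Treg and 48.7 and 60.5 CPM in Tconv (log2 fold change 0.82, edgeR adjusted p = 0.00283). Both ended without Tconv replicate 1 (edgeR adjusted p = 0.26 and 0.12), and Ubash3b also without Treg replicate 2 (0.064). The receptor's own Cd3g measured 1018 and 1055 CPM in Treg and 1183 and 1130 CPM in Tconv (log2 fold change -0.16, edgeR adjusted p = 0.15) and Cd3d 1002 and 922 CPM in Treg and 1079 and 1089 CPM in Tconv (log2 fold change -0.17, edgeR adjusted p = 0.18), below the Tconv samples but not past the threshold. Receptor-proximal genes called higher numbered 1 without Tconv replicate 1. Receptor-proximal genes called lower numbered 10 without Treg replicate 2 or without Tconv replicate 1.

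In the PI3K, AKT, mTOR and FOXO pathway 6 of 39 tested genes rose (Rragd, Phlpp1, Sesn1, Eif4ebp1, Inpp4b and Rps6ka1) and 4 fell (Sgk1, Pik3ip1, Pik3cd and Rps6kb1). The list's median log2 fold change was 0.03. Pik3ip1, an inhibitor of PI3K, measured 52.6 and 42.5 CPM in Treg and 137 and 125 CPM in Tconv (log2 fold change -1.47, SE 0.21, edgeR adjusted p = 0.000321), and Sgk1, a kinase downstream of PI3K, measured 8.96 and 17.1 CPM in Treg and 38.4 and 48.6 CPM in Tconv (log2 fold change -1.71, SE 0.29, edgeR adjusted p = 0.00104). Sesn1, an inhibitor of mTORC1, measured 67.7 and 70.8 CPM in Treg and 29.8 and 28.1 CPM in Tconv (log2 fold change 1.25, SE 0.17, edgeR adjusted p = 0.000178). All 3 held in every setting tried. Pik3cd, the catalytic subunit p110δ, measured 57.1 and 50.7 CPM in Treg and 115 and 77.7 CPM in Tconv (log2 fold change -0.89, edgeR adjusted p = 0.00422), and its call ended without Tconv replicate 1 (edgeR adjusted p = 0.23). The genes that fell include both an inhibitor and a catalytic subunit of PI3K. Gsk3b measured 130.4 and 115 CPM in Treg and 113 and 106 CPM in Tconv (log2 fold change 0.16, edgeR adjusted p = 0.39) and did not pass. With plain totals it passed as higher (edgeR adjusted p = 0.01). PI3K pathway genes called higher numbered 2 without Tconv replicate 1 or without Tconv replicate 2, 3 without Treg replicate 1, and 10 with plain totals. PI3K pathway genes called lower numbered 2 without Tconv replicate 1.

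Of 36 tested cyclic AMP and G protein genes, 4 rose and 7 fell. With plain totals 10 were called higher and 5 lower, where all genes tested gave 1627 and 360. The 4 were Rgs1, Gna15, Crem and Creb1, and the 7 were Pde3b, Pde4d, Pde7a, Pde4b, Grk6, Arrb2 and Rgs19. Of the 7, 4 are phosphodiesterases, which break down cyclic AMP. Pde3b measured 2.80 and 1.77 CPM in Treg and 61.9 and 60.5 CPM in Tconv (log2 fold change -4.72, SE 0.29, edgeR adjusted p = 2.97e-07). Pde7a measured 13.4 and 11.8 CPM in Treg and 28.1 and 50.7 CPM in Tconv (log2 fold change -1.53, SE 0.26, edgeR adjusted p = 0.00106) and Pde4b 25.2 and 21.8 CPM in Treg and 40.7 and 54.0 CPM in Tconv (log2 fold change -0.96, edgeR adjusted p = 0.00644). The gap between the groups was widest for Pde3b. The call of Pde4b ended without Treg replicate 2 (edgeR adjusted p = 0.063). Rgs1, which shortens signals of chemokine receptors, measured 159.6 and 115 CPM in Treg and 5.73 and 27.0 CPM in Tconv (log2 fold change 3.36, edgeR adjusted p = 0.00116), and the G protein Gna15 measured 24.6 and 42.5 CPM in Treg and 3.44 and 9.72 CPM in Tconv (log2 fold change 2.56, edgeR adjusted p = 0.011). Both calls ended without Tconv replicate 1 (0.075 and 0.27), and that of Gna15 without Treg replicate 2 (0.1). The widely expressed Gnai2 measured 689 and 712 CPM in Treg and 659 and 675 CPM in Tconv (log2 fold change 0.07, edgeR adjusted p = 0.64) and Gnas 431 and 467 CPM in Treg and 439 and 427 CPM in Tconv (log2 fold change 0.05, edgeR adjusted p = 0.76), with the groups close or overlapping. Both passed as higher with plain totals (edgeR adjusted p = 0.015 and 0.029). Cyclic AMP and G protein genes called higher numbered 0 without Tconv replicate 1 (5 at an unadjusted p under 0.05), 1 without Treg replicate 2, 2 without Tconv replicate 2, and 8 with the replicate block. Cyclic AMP and G protein genes called lower numbered 3 without Treg replicate 2, and 4 without Tconv replicate 1.

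Of 44 MAPK genes, 6 rose (Map3k8, Gadd45b, Dusp1, Dusp5, Map3k5 and Mapkapk2) and 4 fell (Dusp10, Rasa3, Rasal3 and Map4k4). Mapkapk2, a kinase downstream of p38, measured 70.0 and 75.5 CPM in Treg and 43.0 and 29.1 CPM in Tconv (log2 fold change 0.95, SE 0.17, edgeR adjusted p = 0.0015) and held in every setting tried. Of the phosphatases that inactivate MAP kinases, Dusp5 measured 33.6 and 38.9 CPM in Treg and 13.2 and 17.3 CPM in Tconv (log2 fold change 1.30, edgeR adjusted p = 0.00262), Dusp10 20.2 and 14.2 CPM in Treg and 40.7 and 34.5 CPM in Tconv (log2 fold change -1.15, edgeR adjusted p = 0.00231), and Dusp2 197 and 192 CPM in Treg and 186 and 155 CPM in Tconv (log2 fold change 0.17, edgeR adjusted p = 0.52). Dusp5 and Dusp10 thus differed in opposite directions, and both calls ended without Tconv replicate 1 (edgeR adjusted p = 0.11 and 0.087). Gadd45b, induced by NF-κB and TGF-β, measured 47.6 and 73.8 CPM in Treg and 12 and 22.7 CPM in Tconv (log2 fold change 1.92, edgeR adjusted p = 0.00618), and its call ended without Tconv replicate 1 (0.2) and without Treg replicate 2 (0.07). MAPK genes called higher numbered 2 without Tconv replicate 1, and 11 with plain totals. MAPK genes called lower numbered 1 without Treg replicate 2 or without Tconv replicate 1, and 2 without Treg replicate 1, without Tconv replicate 2, with plain totals or in the fit of the 4 sorted samples. In the Notch and Wnt list 1 of 21 rose (Wls) and 2 fell (Dtx1 and Btg1), a share close to the background. Notch and Wnt genes called higher numbered 2 with plain totals. Notch and Wnt genes called lower numbered 0 without Treg replicate 2, without Tconv replicate 2 or with plain totals (4, 5 and 1 at an unadjusted p under 0.05, in that order), 1 without Tconv replicate 1, in the fit of the 4 sorted samples, without cells with proliferation genes or without cells with markers of other types, and 5 with the channel block.

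Calcium and ion transport genes included 8 of 34 that rose (Trpm4, S100a6, S100a4, P2rx7, Atp2b4, S100a10, S100a11 and Atp2b1) and 4 that fell (Atp1b1, Orai2, Atp1b3 and Stim1). Atp1b1, a subunit of the sodium pump, measured 16.8 and 10.6 CPM in Treg and 72.7 and 56.1 CPM in Tconv (log2 fold change -2.26, SE 0.27, edgeR adjusted p = 6.65e-05) and held in every setting tried. Orai2, a store-operated calcium channel, measured 29.7 and 21.2 CPM in Treg and 44.1 and 50.7 CPM in Tconv (log2 fold change -0.87, edgeR adjusted p = 0.00363), and its call ended without Treg replicate 2 (edgeR adjusted p = 0.067). S100a6, a calcium-binding protein of activated and tissue cells, measured 934 and 1405 CPM in Treg and 76.8 and 370.3 CPM in Tconv (log2 fold change 2.51, edgeR adjusted p = 0.00571), and S100a4 646 and 844 CPM in Treg and 72.2 and 285 CPM in Tconv (log2 fold change 2.19, edgeR adjusted p = 0.00427). The Tconv samples differed several-fold for both. Their calls ended without Tconv replicate 1 (0.099 and 0.086), and that of S100a6 without Treg replicate 2 (0.051). P2rx7, an ATP-gated channel, measured 40.3 and 28.3 CPM in Treg and 9.74 and 10.8 CPM in Tconv (log2 fold change 1.76, edgeR adjusted p = 0.027), and its call ended without Tconv replicate 1 (0.27), Tconv replicate 2 (0.08) or Treg replicate 1 (0.15). Calcium and transport genes called higher numbered 1 without Tconv replicate 1, 5 without Treg replicate 2, and 13 with plain totals. Calcium and transport genes called lower numbered 2 without Treg replicate 2 or without Tconv replicate 1.

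Among 38 genes of the BCL-2 family and cell death, 8 rose (among them Gimap7, Bcl2l1, Bid, Bak1, Xiap and Gimap1) and 1 fell (Gimap6). The group holds the pro-apoptotic Bid and Bak1 beside the survival genes Bcl2l1 and Xiap. Gimap7, a GTPase of lymphocytes, measured 212 and 202 CPM in Treg and 69.3 and 90.7 CPM in Tconv (log2 fold change 1.41, SE 0.14, edgeR adjusted p = 1.18e-05) and held in every setting tried. Its relative Gimap4 measured 577 and 487 CPM in Treg and 547 and 600.2 CPM in Tconv (log2 fold change -0.10, edgeR adjusted p = 0.57), with overlapping samples. Cell death genes called higher numbered 2 without Treg replicate 2 or without Tconv replicate 1, 5 without Tconv replicate 2, 15 with the replicate block, and 19 with plain totals. Cell death genes called lower numbered 0 without Treg replicate 2, without Tconv replicate 1, without Tconv replicate 2, with plain totals, in the fit of the 4 sorted samples or without cells with proliferation genes (1, 1, 3, 0, 1 and 2 at an unadjusted p under 0.05, in that order), and 2 without Treg replicate 1.

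Metabolic lists mostly had medians near 0, with single enzymes that differed. Of 28 glycolysis and glucose uptake genes, 5 rose (Slc2a3, G6pdx, Ldhb, Tpi1 and Tkt), 2 fell (Pdk1 and Aldoa), and the median log2 fold change was 0.06. The glucose transporter Slc2a3 (GLUT3) measured 47.6 and 40.7 CPM in Treg and 10.3 and 16.2 CPM in Tconv (log2 fold change 1.82, SE 0.22, edgeR adjusted p = 7.23e-05). Pdk1, which blocks entry of pyruvate into the mitochondrial cycle, measured 47.0 and 40.1 CPM in Treg and 149 and 124 CPM in Tconv (log2 fold change -1.67, SE 0.20, edgeR adjusted p = 6.55e-05). The calls of Slc2a3 and Pdk1 held in every setting tried. Gapdh measured 677 and 852 CPM in Treg and 542 and 622 CPM in Tconv (log2 fold change 0.40, edgeR adjusted p = 0.089) and Ldha 369 and 394 CPM in Treg and 394 and 419.9 CPM in Tconv (log2 fold change -0.09, edgeR adjusted p = 0.62), neither past the threshold. Gapdh passed as higher with the replicate block (adjusted p = 2.92e-05), with the channel block (0.000633), with plain totals (0.014), with no filter (0.0012) and without Treg replicate 1 (0.045). Glycolysis genes called higher numbered 2 without Tconv replicate 1, 3 without Treg replicate 2 or without Tconv replicate 2, and 8 with plain totals. Glycolysis genes called lower numbered 1 without Treg replicate 1, without Tconv replicate 1, with plain totals or in the fit of the 4 sorted samples.

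Of 39 TCA cycle genes and mitochondrial carriers, 2 rose (Slc25a1 and Mdh1) and 2 fell (Idh2 and Me2), a share close to the background. TCA cycle and carrier genes called higher numbered 0 without Tconv replicate 1 (2 at an unadjusted p under 0.05), 1 without Treg replicate 2, without Tconv replicate 2, in the fit of the 4 sorted samples or without cells with proliferation genes, and 9 with plain totals. TCA cycle and carrier genes called lower numbered 0 without Tconv replicate 1 (3 at an unadjusted p under 0.05), and 1 without Treg replicate 2, without Tconv replicate 2 or with plain totals. Idh2, the mitochondrial NADP-linked isocitrate dehydrogenase, measured 21.8 and 17.1 CPM in Treg and 56.7 and 34.5 CPM in Tconv (log2 fold change -1.30, edgeR adjusted p = 0.00116), and its call ended without Tconv replicate 1 (edgeR adjusted p = 0.13). Of 73 nuclear genes of the respiratory chain, 8 rose and 1 fell, a share near the background, with a median of 0.02; with plain totals 32 rose and 1 fell. Nuclear respiratory genes called higher numbered 1 without Tconv replicate 1, 2 without Treg replicate 2 or without Tconv replicate 2, 3 in the fit of the 4 sorted samples, and 5 without Treg replicate 1. Nuclear respiratory genes called lower numbered 0 without Treg replicate 2 or without Tconv replicate 1 (4 and 2 at an unadjusted p under 0.05, in that order), and 2 without Tconv replicate 2 or without cells with proliferation genes. Of 12 tested mitochondrially encoded transcripts, 10 fell, with a median of -0.41, and with plain totals 5 fell, with a median of -0.15. Mitochondrial transcripts called lower numbered 4 in the fit of the 4 sorted samples, 5 without Tconv replicate 1, and 6 without Treg replicate 2. mt-Nd2, a subunit of complex I, measured 3266 and 2819 CPM in Treg and 4846 and 4217 CPM in Tconv (log2 fold change -0.58, SE 0.09, edgeR adjusted p = 0.000478), and mt-Nd5 measured 325 and 289.7 CPM in Treg and 448 and 444 CPM in Tconv (log2 fold change -0.54, SE 0.08, edgeR adjusted p = 0.000341). Treg replicate 2 was the lowest sample for both. mt-Co1 measured 9381 and 8791 CPM in Treg and 10383 and 10101 CPM in Tconv (log2 fold change -0.17, edgeR adjusted p = 0.086) and did not pass, but did with the replicate block (adjusted p = 0.0039), with the channel block (0.013), in DESeq2 (0.00144), without cells with proliferation genes (0.042) and without Treg replicate 1 (0.047). The median share of mitochondrial UMIs per cell was 6.78% and 6.49% in Treg and 7.20% and 7.01% in Tconv.

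Redox, iron and metal genes held 6 of 41 that rose (Mt1, Glrx, Gsto1, Gpx4, Prdx2 and Prdx1) and 4 that fell (Nfe2l2, Sepp1, Prdx6 and Fth1). Glrx, a glutaredoxin that reduces protein disulfides, measured 143 and 243 CPM in Treg and 26.3 and 48.6 CPM in Tconv (log2 fold change 2.47, SE 0.37, edgeR adjusted p = 0.000406), and Gsto1, a glutathione transferase, measured 43.1 and 31.3 CPM in Treg and 10.3 and 5.40 CPM in Tconv (log2 fold change 2.13, SE 0.35, edgeR adjusted p = 0.000932). Gpx4, which protects membranes from lipid peroxides, measured 395 and 399.5 CPM in Treg and 292 and 299 CPM in Tconv (log2 fold change 0.43, SE 0.08, edgeR adjusted p = 0.0023). Nfe2l2, which encodes the antioxidant regulator NRF2, measured 28.6 and 20.1 CPM in Treg and 65.9 and 59.4 CPM in Tconv (log2 fold change -1.37, SE 0.17, edgeR adjusted p = 9.73e-05), and Sepp1, a secreted selenoprotein, measured 109 and 102 CPM in Treg and 206 and 208 CPM in Tconv (log2 fold change -0.97, SE 0.14, edgeR adjusted p = 0.000258). These 5 calls held in every setting tried. Redox and metal genes called higher numbered 3 without Tconv replicate 1, and 14 with plain totals.

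Of 39 nucleotide, one-carbon and polyamine genes, 4 rose (Nt5e, Odc1, Samhd1 and Oaz2) and 2 fell (Impdh1 and Atic). Nucleotide and polyamine genes called higher numbered 1 without Treg replicate 2, 2 without Tconv replicate 1, 7 with the channel block, 8 with the replicate block, and 11 with plain totals. Nucleotide and polyamine genes called lower numbered 0 without Treg replicate 2 or without Tconv replicate 1 (4 and 2 at an unadjusted p under 0.05, in that order), and 1 without Treg replicate 1, without Tconv replicate 2, in DESeq2, with plain totals or in the fit of the 4 sorted samples. Samhd1, which degrades deoxynucleotides and restricts retroviruses, measured 648 and 636 CPM in Treg and 269 and 348 CPM in Tconv (log2 fold change 1.08, SE 0.10, edgeR adjusted p = 1.06e-05) and held in every setting tried. Odc1, the first enzyme of polyamine synthesis, measured 82.9 and 107 CPM in Treg and 36.1 and 49.7 CPM in Tconv (log2 fold change 1.20, edgeR adjusted p = 0.017), and its call ended without Tconv replicate 1 (edgeR adjusted p = 0.29) and without Treg replicate 2 (0.14). Cholesterol genes gave 1 of 31 higher (Ebp) and 1 lower (Npc2). That is 6.45% of the list against 12.2% of all genes, a gap that rests on few genes. Cholesterol genes called higher numbered 2 without Treg replicate 1, without Tconv replicate 2, with the replicate block or without cells with proliferation genes, and 6 with plain totals. Cholesterol genes called lower numbered 2 without Treg replicate 1 or without cells with markers of other types. Npc2, which moves cholesterol out of lysosomes, measured 367 and 338 CPM in Treg and 676 and 538 CPM in Tconv (log2 fold change -0.79, SE 0.12, edgeR adjusted p = 0.000446). Fatty acid genes gave 3 higher of 30 (Acot7, Fabp5 and Acads) and 1 lower (Elovl7), and Fabp5, a fatty acid binding protein, measured 33.0 and 41.3 CPM in Treg and 14.3 and 13 CPM in Tconv (log2 fold change 1.42, edgeR adjusted p = 0.00938), a call that ended without Tconv replicate 1 (0.13) and without Treg replicate 2 (0.079). Fatty acid genes called higher numbered 0 without Treg replicate 2 or without Tconv replicate 1 (7 and 3 at an unadjusted p under 0.05, in that order), 1 without Treg replicate 1, and 7 with plain totals. Fatty acid genes called lower numbered 0 without Treg replicate 1, without Tconv replicate 1, with the replicate block, in DESeq2, with plain totals, in the fit of the 4 sorted samples or without cells with proliferation genes (2, 2, 1, 3, 2, 1 and 3 at an unadjusted p under 0.05, in that order), and 2 with the channel block. Amino acid genes gave 2 higher of 22 (Slc43a2 and Ass1) and 3 lower (Bcat2, Slc38a2 and Slc38a1). Amino acid genes called higher numbered 0 without Treg replicate 2 or without Tconv replicate 1 (3 and 2 at an unadjusted p under 0.05, in that order), 1 without cells with proliferation genes, and 6 with plain totals. Amino acid genes called lower numbered 0 without Treg replicate 1, without Treg replicate 2, without Tconv replicate 1, in DESeq2, with plain totals, in the fit of the 4 sorted samples or without cells with proliferation genes (3, 3, 1, 3, 0, 3 and 2 at an unadjusted p under 0.05, in that order), and 1 without Tconv replicate 2 or with the replicate block.

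Cytosolic ribosomal protein genes fell nearly throughout. Of 76 tested, 74 fell, with a median log2 fold change of -0.62, and with plain totals 65 fell, with a median of -0.37. Their summed level was 276119 and 224599 CPM in Treg and 427377 and 361606 CPM in Tconv. Treg replicate 2 was the lowest of the 4 and Tconv replicate 1 the highest. Rps29 measured 6435 and 5243 CPM in Treg and 13142 and 11140 CPM in Tconv (log2 fold change -1.06, SE 0.10, edgeR adjusted p = 6.95e-06), and Rps24 measured 8308 and 6278 CPM in Treg and 14968 and 12276 CPM in Tconv (log2 fold change -0.90, SE 0.13, edgeR adjusted p = 0.000259). Many of these genes have near-identical processed pseudogenes, so their counts can be split by the authors' assignment of reads.

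**Figure D4:**
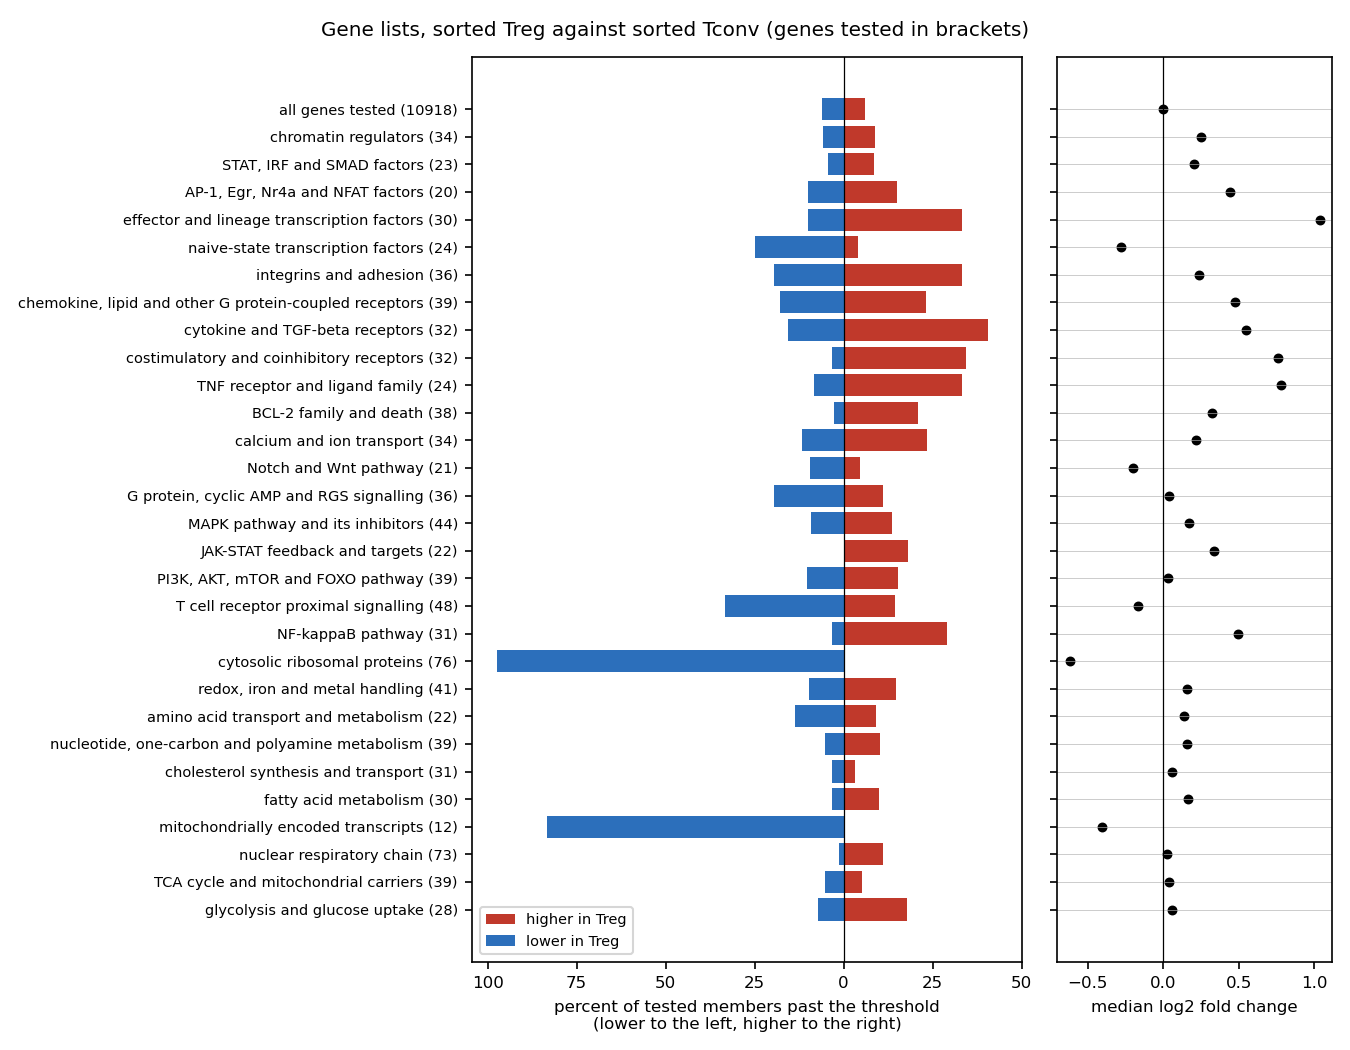
Left, the percent of tested members of each gene list that passed the threshold as higher (red, to the right) or lower (blue, to the left) in Treg, with the number tested in brackets and all genes at the top; right, the median log2 fold change of each list. Cytosolic ribosomal proteins (74 of 76 lower) and mitochondrially encoded transcripts (10 of 12 lower) stand out to the left. The lists of cytokine receptors (13 of 32) and of costimulatory and coinhibitory receptors (11 of 32) reach farthest to the right among those drawn. Both of these counts include well-known Treg markers.

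Within the Treg samples, the same genes were spread unevenly over the authors' clusters. Clusters were built from these genes, so the levels below are descriptions with no test. Maf measured 34.9 and 89.0 CPM in resting Treg, 130.0 and 469.5 in furtive, 699 and 532 in activated and 601 and 375 in tissue-like Treg, against 5.14 and 3.37 in resting and 174 and 261 in activated Tconv. In both replicates it was highest in activated Treg, and resting Treg also lay above resting Tconv. Batf and Icam1 were likewise highest in activated Treg, at 246 and 275 and 96.8 and 125 CPM. Tnfrsf1b reached 166 and 161 CPM there and 39.6 and 37.5 in resting Treg, against 4.41 and 13.5 in resting and 16.5 and 14.9 in activated Tconv. Nav2 measured 94.0 and 107 CPM in activated and 50.1 and 82.3 in tissue-like Treg, against 4.91 and 30.0 in furtive and 7.92 and 7.03 in resting Treg.

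Socs2, Lta, Capn3 and Id3 were highest in resting Treg in both replicates, and Rgs1 was so in replicate 1 only. Socs2 measured 96.7 and 133 CPM in resting and 22.1 and 2.27 in activated Treg. Rgs1 measured 271 and 204 CPM in resting, 139.8 and 215 in furtive and 124 and 107 in activated Treg, the furtive cells being higher in replicate 2. Lta measured 90.3 and 70.3 CPM in resting and 4.56 and 6.59 in tissue-like Treg, and Capn3 77.7 and 67.9 in resting and 8.29 and 18.2 in activated Treg. Id3 fell from 352 and 354 CPM in resting to 164 and 92.2 in tissue-like Treg. The naive-state Tcf7 measured 154 and 129 CPM in resting Treg and 533 and 468 in resting Tconv, so the difference between the sorts was also present between resting cells. Ikzf1 showed the same, at 178 and 159 against 306 and 332, and so did Themis, at 25.4 and 23.4 against 86.0 and 84.2. Rps29 measured 8315 and 8140 CPM in resting Treg, 3867 and 3824 in tissue-like Treg and 14932 and 14733 in resting Tconv.

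Ccr2, S100a4 and Glrx were highest in tissue-like Treg in both replicates. Ccr2 measured 410.0 and 343 CPM there, 49.1 and 94.9 in furtive, 35.9 and 18.2 in activated and 0 and 0 in resting Treg. S100a4 measured 3052 and 2138 CPM in tissue-like, 439 and 779 in furtive, 506 and 541 in activated and 19.0 and 70.3 in resting Treg. For Glrx the levels in the same order were 542 and 540.2, 145 and 349.6, 158 and 196 and 26.9 and 49.2 CPM, so furtive and activated Treg lay between the other clusters for all 3 genes. Activated Tconv also held more of these than resting Tconv, with S100a4 at 401 and 863 CPM against 21.3 and 55.5. Id2 was highest outside Treg, at 380.3 and 598 CPM in activated Tconv against 61.0 and 47.1 in resting Tconv. Samhd1 and Slc2a3 varied less, with Samhd1 at 632 and 632 CPM in resting and 1020 and 978 in tissue-like Treg against 294 and 377 in resting Tconv.

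**Figure D5:**
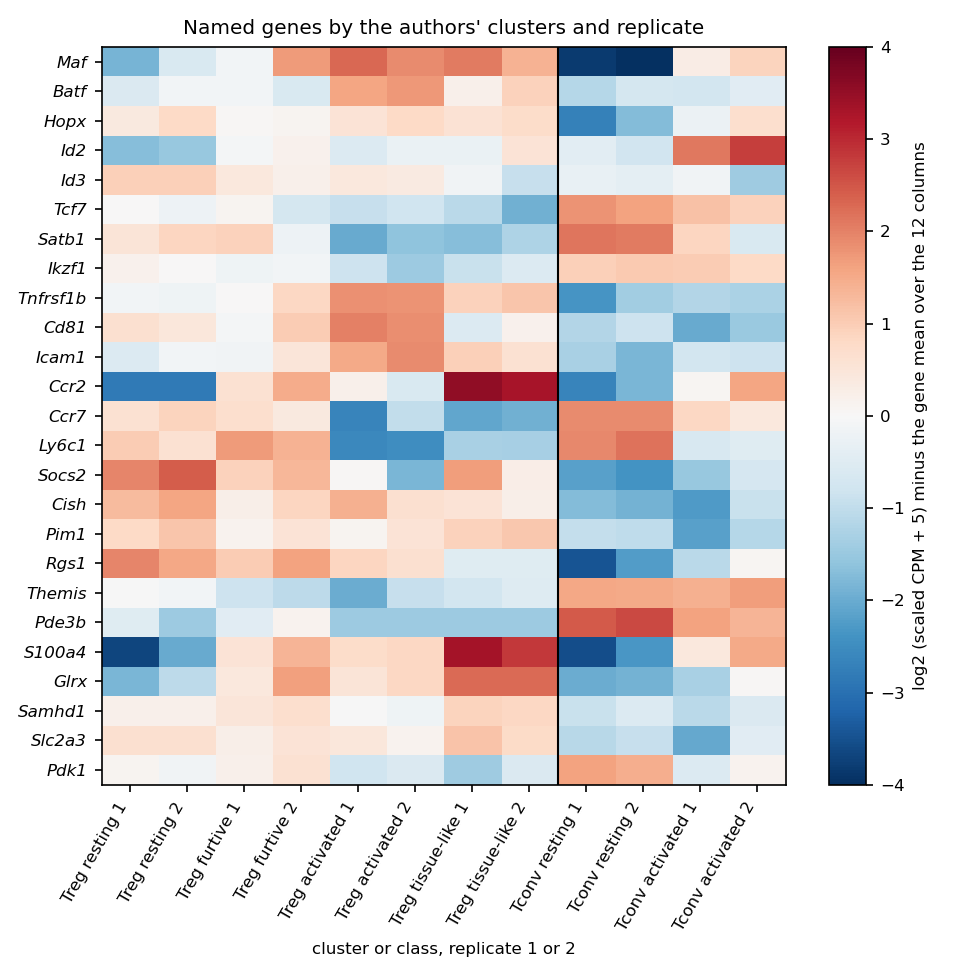
Colour gives log2 (scaled CPM + 5) of each named gene minus its mean over the 12 columns, which are the authors' clusters of the Treg samples and classes of the Tconv samples in replicates 1 and 2. Ccr2, S100a4 and Glrx are reddest in tissue-like Treg, Maf, Batf and Icam1 in activated Treg, Socs2 in resting Treg, and Themis and Pde3b in Tconv.

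The same genes could be read in 5 WT samples that were not sorted by GFP, in which the authors' annotation separates Treg from Tconv. That annotation used expression, so a shared direction is a description. These are 3 samples of WT cells from mixed marrow chimeras, aged 16 weeks, and 2 of unsorted mice, aged 9 weeks as the sorted ones, with 29 to 162 Treg-annotated cells each. Of the 673 genes higher in sorted Treg, 514 (76.4%) were higher in Treg-annotated cells of all 3 chimera samples and 472 (70.1%) in both unsorted mice samples. Over all 10918 genes these shares were 17.9% and 20.8%. Of the 656 genes lower in sorted Treg, 539 (82.2%) and 547 (83.4%) were lower in every sample, against 24.6% and 37.3% of all genes. These backgrounds were not matched for level. A gene at 0 in both classes of a sample counts in neither direction. Cish was 124, 83.5, 85.9, 44.8 and 58.1 CPM in the Treg-annotated cells of the 3 chimera and 2 unsorted samples and 13.1, 9.18, 12.6, 8.99 and 12.2 in their Tconv-annotated cells. Themis was 21.5, 23.7, 15.8, 24.9 and 5.28 CPM against 82.5, 80.1, 80.0, 96.4 and 82.2, and Pde3b 2.39, 1.25, 0, 4.98 and 5.28 against 38.7, 39.0, 39.2, 48.3 and 50.5. For these 3 genes no Treg-annotated value overlapped a Tconv-annotated value. Of the named genes past the threshold, 55 of the 79 higher and 55 of the 69 lower kept their direction in all 5 samples. The genes shown here are among those that did. Tgfbr1 was 54.9, 44.9, 63.3, 34.9 and 52.8 CPM against 21.4, 20.4, 18.2, 28.9 and 20.4, and Tgfbr2 40.6, 61.1, 54.3, 29.9 and 37.0 against 81.3, 98.4, 83.3, 102 and 78.1.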

How the data were processed

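The authors deposited raw UMI counts in 1 matrix of 26652 cells and 33006 genes. The submitters' processing notes name Cell Ranger 3.0.2 and the build mm10. Use of strand in counting is not given in these sources. The Foxp3 row of WT cells sums Foxp3 and GFP counts, so both are given here from the authors' separate deposited counts per cell. The percent of mitochondrial UMIs (at most 15.0%) and the Scrublet doublet score (at most 0.293) per cell are deposited by the authors; they hold no doublet call, and every sorted cell was kept. Of the cell barcodes, 9 occur in both V3 channels, 0 of them among sorted cells. Another 43 metadata columns of values were not used.

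UMIs were summed per sample (1659790 and 1472737 for Treg, 1935241 and 955097 for Tconv) and tested with edgeR 4.0.16 (R 4.3.3). Genes passed filterByExpr (minimum count 10), libraries were scaled by TMM, and the quasi-likelihood F test ran over the 14 V3 samples of 6 groups, which share the estimate of spread, with Benjamini-Hochberg adjustment over all genes. An exact permutation test of 2 against 2 samples cannot go below p = 0.333 and was not used. The scripts were tested on simulated counts. The 2 samples of a group differed by more than counting error, with a chi-square to degrees of freedom ratio of 2.93 in Treg and 2.37 in Tconv. Replicate numbers mark a shared batch of the authors' metadata, named as a tube there and taken here as a 10x channel. The differences between replicates correlated at 0.225 across 5026 genes.

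The groups compared and the 29 lists, of 1048 genes, 997 of them tested, were chosen with earlier results of these data known. Genes with values are up to 12 in each direction among those past the threshold whose groups did not overlap and whose mean reached 20 CPM, up to 3 in each direction per list by the same criteria, and up to 2 others per list that did not pass, with the highest mean; ribosomal, T cell receptor and immunoglobulin genes were left out of the first set. These are 206 genes, 148 past the threshold, with Foxp3, Il2ra and Ikzf2 as a check of the sort. Other genes are named only as counted in a list. A few counted genes are not reported here by name. Alternatives were RLE scaling, DESeq2 1.42.0, no filter, only the 4 sorted samples, blocks for replicate or channel, each sample left out, and removal of cells with at least 2 markers of other types (or annotated as NKT) or of proliferation genes; plain UMI totals were added after seeing the data. Promoters and gene coordinates are RefSeq's for GRCm38.p6. Sums and intervals used scipy 1.17.1, numpy 2.4.6 and pandas 2.3.3 in Python 3.11.15, and figures matplotlib 3.10.9.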

Additional observations from a re-analysis of the deposited data

How the results depend on the processing

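With plain totals of UMIs, chosen after seeing the data, 1627 genes were higher and 360 lower, against 673 and 656 with TMM, and the median log2 fold change over all genes moved from 0 to 0.26. Under this scaling Uqcrh turned from -0.05 to 0.20 (edgeR adjusted p = 0.0419). It was the only named gene that changed sign and passed the threshold in either fit. Sign changes of named genes that passed in neither fit were not counted. A fit of only the 4 sorted samples gave 613 higher and 423 lower. Leaving out 1 sample in turn gave 169 to 552 higher and 253 to 543 lower genes, the lowest counts without Tconv replicate 1, and a lone sample is then assumed to vary like the other groups. With the replicate number as a block in the 4 sorted samples 872 genes were higher and 649 lower, and with a block for the channel in all 14 samples 807 and 744. RLE scaling gave 706 and 612, DESeq2 679 and 554, and no filter 952 and 785. Of the 148 named genes past the threshold, 66 passed it in the same direction in every setting. These were chosen without overlap between groups and with a minimum level, and of all 1329 called genes 349 kept their call in each fit that leaves out 1 sample. With the replicate block 145 of the 148 passed, and with the channel block all 148. Of the 58 named genes below the threshold, 14 passed with the replicate block and 12 with the channel block. With 148 to 362 cells per sample, low genes rest on few UMIs, and 43 called genes had 0 UMIs in both Tconv samples.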

Other observations

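The tissue-like Treg cluster is annotated only in the sorted samples among WT samples of the V3 kit. It held 10.3% and 16.9% of the sorted Treg, and 0 of the 29 to 162 Treg-annotated cells in each of 5 other WT samples. If the annotation was applied alike to all samples, which the sources used here do not say, a rough 95% upper limit can be set. It divides 3 cells by the Treg-annotated cells and treats cells as independent draws. It was 4.11%, 1.85% and 4.05% in the 3 chimera samples. In the 2 unsorted samples, of the same age as the sorted ones, it was 8.11% and 10.3%. The limit of the last is about the share in sorted Treg replicate 1. Gna15, S100a4 and Glrx, which were highest in that cluster among sorted Treg in both replicates, can be set beside those 5 samples (3 of chimeras, then 2 of unsorted mice). Gna15 was 11.9, 8.73, 9.04, 9.96 and 15.8 CPM in their Treg-annotated cells and 27.8, 10.9, 19.1, 12.1 and 18.4 in their Tconv-annotated cells, lower in 5 of 5, where sorted Treg were higher than sorted Tconv (24.6 and 42.5 against 3.44 and 9.72 CPM). The Treg-annotated values rest on 2 to 7 UMIs each. S100a4 was 657, 365, 296, 388 and 259 CPM in Treg-annotated and 425, 231, 313, 199 and 370 in Tconv-annotated cells, higher in 3 of 5. Glrx, which sorted Treg also held at a higher level, was 141, 143, 165, 120 and 201 CPM against 59.6, 44.5, 45.3, 33.2 and 56.1, higher in 5 of 5.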
